A study of Mus musculus with 24 samples.

Results

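Whether high-fat feeding changed the liver transcriptome differently in males labelled Cyp2b-null and in wild-type males was measured as a genotype-by-diet interaction in 12 of the 24 libraries of the series. The 12 are all libraries of the male count table, 3 in each of 4 groups, and were taken by the names of their columns. All came from the livers of male C57BL/6 mice that were wild type (WT) or labelled as lacking the Cyp2b genes (Cyp2b-null), and that were kept for 10 weeks on normal chow (ND) or on a high-fat diet (HFD, 60% fat). The labels give no age and no breeding scheme. Nor do they state whether each library is a different animal, and p-values thus cover only the spread among these libraries. The interaction is the log2 difference HFD minus ND in males labelled Cyp2b-null, minus the same difference in WT males. A positive value means that the level on HFD relative to ND was higher in the labelled nulls than in WT. The series was set up to learn what Cyp2b enzymes do in diet-induced obesity.

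Cyp2b enzymes are cytochrome P450 monooxygenases of the hepatocyte endoplasmic reticulum that oxidise drugs, steroids and unsaturated fatty acids, and the nuclear receptor CAR induces several of them. In mouse liver, sex-specific growth hormone pulses set the level of many P450 genes, and the circadian clock sets the daily course of glycogen, sterol and bile acid genes. An interaction can arise from a diet effect in either genotype, and a gene can show it through opposite diet effects of modest size.

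The male libraries held 8.28 M to 20.2 M counts. Library 1 of the labelled nulls on ND stood apart: 32.8% of its counts were mitochondrially encoded, against 3.51% to 7.91% in the other 11, and Spearman's rho between it and other male libraries had a median of 0.800, against 0.965 to 0.977 for the rest. Its 10 most abundant genes took 36.0% of its counts, against 14.6% to 22.4%. The summed level of 15 hepatocyte markers was 57832 CPM (counts scaled to library size) there and 92091 to 188665 CPM elsewhere, so the tissue label held in every library. Summed lymphocyte and neutrophil markers reached 157 CPM in that library and 10.2 to 20.1 CPM in the others, adipocyte markers 183 CPM against at most 108 CPM, and muscle markers 29.2 CPM against 3.66 to 5.10 CPM. Interactions of the male libraries are therefore given with this library (12 libraries) and without it (11 libraries, which leaves 2 labelled nulls on ND). The part of RNA quality or of other cells in any value below was not tested, and in bulk tissue fewer cells of a type and less RNA per cell cannot be told apart.

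With 12 libraries none of 14873 genes passed an adjusted p of 0.05 in edgeR's quasi-likelihood test with Benjamini-Hochberg adjustment (0% called). The smallest adjusted p was 0.196. At an unadjusted p under 0.05 there were 691 genes (4.65%), 214 with a positive (1.44%) and 477 with a negative interaction (3.21%). On the same libraries DESeq2 called 19 genes and limma with library quality weights called 6. Below, a gene that passed or did not pass did so in edgeR after genes with low counts were filtered out. The adjusted p of the other tools is given where they called a gene named here. Without library 1 of the labelled nulls on ND, 1 of 15139 genes passed (0.00661% called): Slc45a3, which had a positive interaction. The number at an unadjusted p under 0.05 then rose to 1168 (7.72%), with 446 positive (2.95%) and 722 negative (4.77%). The median interaction over all genes was -0.05 with 12 and -0.02 with 11 libraries. Precision set what could be seen: the median 95% interval reached 1.12 log2 units to either side of the estimate with 12 libraries and 0.76 with 11, and for the 4325 better expressed genes (log2 CPM averaging 5 or more) it reached 0.57 with 11. The common biological coefficient of variation was 0.340 with 12 libraries and 0.219 with 11.

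The hepatic Cyp2b genes come first because they check the labels. Cyp2b9, a female-biased Cyp2b enzyme (GRCm38, chr7:26173411-26210661, plus strand), had 1, 2 and 4 counts in the WT males on ND, 354, 48 and 797 on HFD, 24, 29 and 59 in the labelled nulls on ND and 36, 85 and 19 on HFD. As levels these were 0.0865, 0.217 and 0.342 CPM, then 26.6, 4.67 and 36.1 CPM, then 3.21, 1.56 and 3.86 CPM, then 2.03, 7.57 and 1.83 CPM. All 3 WT libraries on HFD lay above all 3 on ND, while the labelled nulls overlapped between diets and lay above every WT library on ND. The interaction of Cyp2b9 was -6.24 ± 1.22 log2 units (SE) with 12 libraries (adjusted p = 0.602) and -6.17 ± 1.5 with 11 (adjusted p = 0.397), which did not pass in edgeR. DESeq2 called it in both fits (adjusted p = 1.9e-04 and 0.0087), and the value rests on the few counts of the WT libraries on ND.

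Cyp2b10, the best known CAR target of the family, had 8.39, 3.68 and 2.56 CPM in WT on ND, 0.527, 1.46 and 0.634 CPM in WT on HFD, 0.535, 0.806 and 0.981 CPM in labelled nulls on ND and 0.394, 2.32 and 0.481 CPM on HFD. Its level was highest in WT on ND, where no library overlapped the WT libraries on HFD. The interaction was 2.90 ± 1.0 with 12 libraries (adjusted p = 0.891) and 2.75 ± 1.01 with 11 (adjusted p = 0.546). Cyp2b13 lay between 0.937 and 4.78 CPM in all 12 libraries, and its interaction of -0.15 ± 0.62 with 12 and -0.53 ± 0.42 with 11 libraries did not pass. Counts of the 3 genes therefore do not separate the genotypes on both diets in males. In female libraries titled KO, Cyp2b13 was at 0 CPM in each, against 235 to 527 CPM in WT females. Cyp2b9 was at 0 to 6.87 CPM there against 304 to 513 CPM, while Cyp2b10 overlapped (0 to 6.87 against 5.83 to 45.9 CPM). Reads of close paralogues can be split between them at the counting step. Why the males differ from the females was not tested, and the genotype is written as labelled throughout.

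Cyp2a4, a testosterone hydroxylase that is normally higher in females, lies near Cyp2b9 on chromosome 7 (chr7:26307169-26315088). Its level was 2.51, 3.46 and 3.08 CPM in WT on ND and 6.10, 6.91 and 12.9 CPM on HFD. In the labelled nulls it was 693, 195 and 569 CPM on ND and 55.4, 31.6 and 115 CPM on HFD. No library of one diet overlapped the other diet in either genotype, and the order of the diets was opposite: HFD above ND in WT, HFD below ND in the labelled nulls. The interaction of -4.38 ± 0.78 (adjusted p = 0.522; 11 libraries -4.05 ± 0.83, adjusted p = 0.378) did not pass in edgeR. DESeq2 called Cyp2a4 in both fits (adjusted p = 5.8e-05 and 0.00296). Its close paralogue Cyp2a5, a coumarin hydroxylase, had -1.05 ± 0.49 and -0.83 ± 0.42, so a share of reads common to both cannot be told apart by these counts. The sequences before the RefSeq starts of Cyp2b9 and Cyp2a4 are shown because these are the 2 largest fitted interactions among the genes named (GRCm38.p6, plus strand, chr7:26173159-26173408 and chr7:26306942-26307168, both upstream of the annotated exons). Capitals mark AGGTCA, the core motif of many nuclear receptors.
Cyp2b9: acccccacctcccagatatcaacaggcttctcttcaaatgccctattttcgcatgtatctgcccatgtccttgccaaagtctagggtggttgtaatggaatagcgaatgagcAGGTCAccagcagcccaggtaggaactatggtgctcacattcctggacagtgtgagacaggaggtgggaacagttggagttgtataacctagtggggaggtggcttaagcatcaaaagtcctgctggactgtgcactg
Cyp2a4: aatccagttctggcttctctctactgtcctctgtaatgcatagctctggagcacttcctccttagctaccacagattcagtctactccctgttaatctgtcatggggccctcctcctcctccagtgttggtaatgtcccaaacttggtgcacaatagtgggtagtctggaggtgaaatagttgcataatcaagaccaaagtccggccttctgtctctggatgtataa
On either strand the first holds AGGTCA and the second does not, and neither holds the E-box CACGTG or the STAT5 motif TTCNNNGAA. Among 32851 RefSeq promoter windows of 250 bases, AGGTCA occurs in 14.02%, CACGTG in 6.021% and TTCNNNGAA in 7.02%, and a match is a description of the letters only. The Cyp2a4 window is 227 bases, shorter than those counted.

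Slc45a3, a membrane protein of the sugar-transporter-like solute carriers best known from prostate, was the only gene to pass in edgeR with 11 libraries. Its level was 48.1, 43.5 and 33.5 CPM in WT on ND and 25.1, 23.2 and 26.1 CPM in WT on HFD, from 239 to 577 counts per library. In the labelled nulls it was 22.1, 15.6 and 18.0 CPM on ND and 41.3, 56.7 and 48.3 CPM on HFD, from 165 to 734 counts. Group means were 41.7 ± 7.47, 24.8 ± 1.46, 18.5 ± 3.28 and 48.8 ± 7.72 CPM in that order (SD, n = 3). Every WT library on HFD lay below every WT library on ND, and every labelled null on HFD lay above every labelled null on ND, including library 1. The diet difference was -0.75 ± 0.17 in WT and 1.54 ± 0.20 in labelled nulls with 11 libraries. The interaction was 2.29 ± 0.26 (95% interval 1.73 to 2.84, adjusted p = 0.00764). With 12 libraries it was 2.15 ± 0.31 (1.48 to 2.81, adjusted p = 0.196), nearly the same size but short of the threshold in edgeR. On the same 12 libraries it passed with DESeq2 (adjusted p = 1.7e-07) and with limma and quality weights (adjusted p = 0.00347), as it did with 11 (adjusted p = 1.1e-10 and 0.0353). Leaving out library 2 or library 3 of the labelled nulls on ND from the 11, which leaves a lone library in that group, gave 2.22 (adjusted p = 0.124) and 2.39 (adjusted p = 0.0577).

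The gene spans chr1:131962967-131982969 on the plus strand, and RefSeq lists 2 starts for it. The 250 bases before the downstream start (GRCm38.p6, chr1:131970359-131970608, plus strand, inside the gene and outside its annotated exons) are shown because this is the gene that passed. Capitals mark AGGTCA.
Slc45a3: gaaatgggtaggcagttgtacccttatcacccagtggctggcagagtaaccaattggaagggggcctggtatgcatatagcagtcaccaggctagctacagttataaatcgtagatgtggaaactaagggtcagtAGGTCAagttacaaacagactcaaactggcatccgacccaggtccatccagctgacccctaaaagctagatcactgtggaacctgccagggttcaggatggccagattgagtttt
This window holds AGGTCA and, on either strand, neither CACGTG nor TTCNNNGAA, against the shares given above for windows of this length. The window before the upstream start is not shown and its motifs were not listed, so the match describes the downstream start only.

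**Figure D1:**
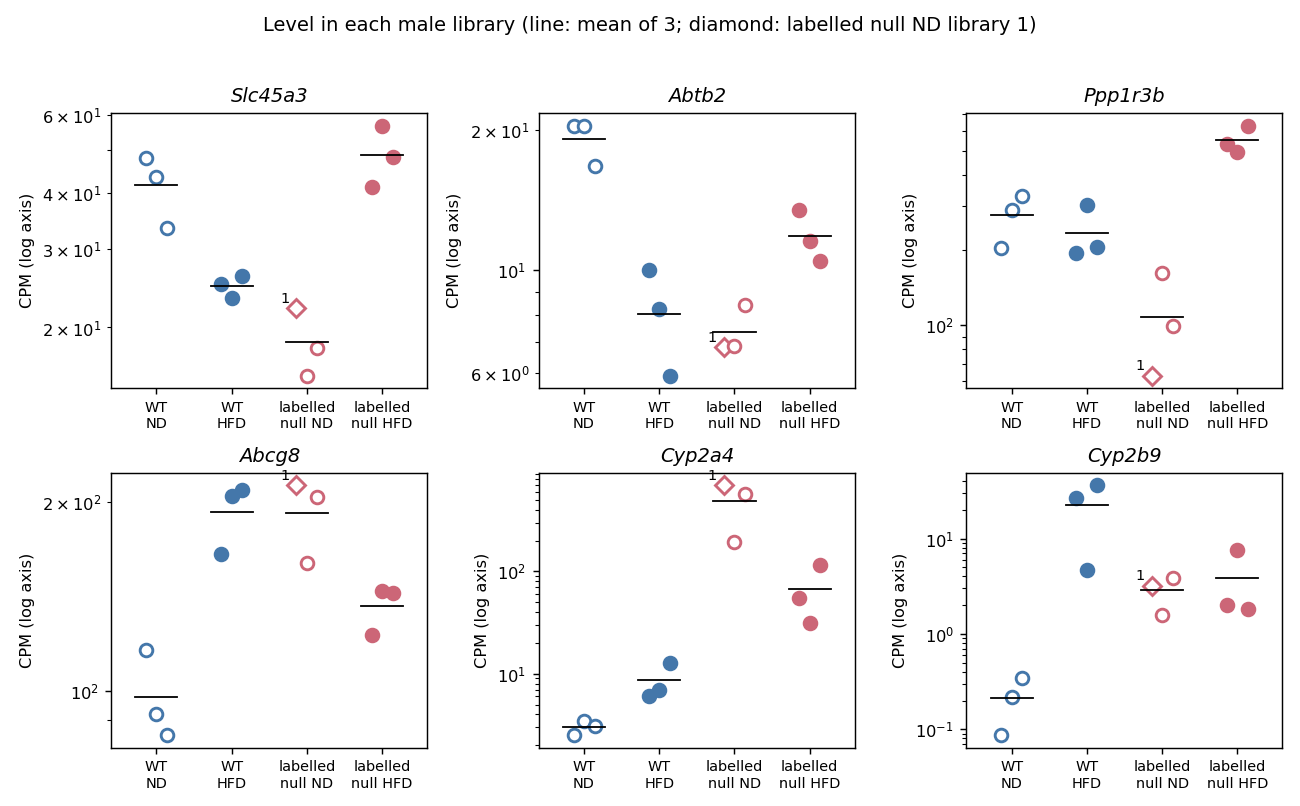
Level of 6 genes in each of the 12 male libraries (CPM, log axis), by genotype and diet; points are libraries, lines are means of 3 and the diamond is library 1 of the labelled nulls on ND. Slc45a3 shows opposite diet differences in the genotypes, from 41.7 to 24.8 CPM in WT and from 18.5 to 48.8 CPM in the labelled nulls, while Cyp2b9 differs between diets mainly in WT.

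Abtb2, which encodes an ankyrin-repeat and BTB-domain protein, had the same opposed order of diets as Slc45a3. It measured 20.4, 20.5 and 16.7 CPM in WT on ND, 10.0, 8.27 and 5.93 CPM in WT on HFD, 6.82, 6.88 and 8.43 CPM in labelled nulls on ND and 13.5, 11.6 and 10.5 CPM on HFD. The diets did not overlap in either genotype. Its interaction of 1.94 ± 0.33 with 12 libraries (adjusted p = 0.522) and 1.89 ± 0.32 with 11 (adjusted p = 0.153) did not pass in edgeR. DESeq2 called Abtb2 in both fits (adjusted p = 3.6e-04 and 3.3e-04), and limma with quality weights called it with 12 libraries (adjusted p = 0.025; with 11, 0.121).

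Ppp1r3b is the subunit that brings protein phosphatase 1 to glycogen in liver and so promotes glycogen synthesis. WT libraries held 204, 291 and 331 CPM on ND and 195, 303 and 206 CPM on HFD, which overlap. The labelled nulls held 62.8, 162 and 99.6 CPM on ND and 533, 495 and 630 CPM on HFD, where the lowest HFD library was far above the highest ND library. The diet difference was therefore -0.23 ± 0.24 in WT and 2.08 ± 0.29 in the labelled nulls with 11 libraries. The interaction was 2.58 ± 0.49 (adjusted p = 0.602) with 12 and 2.31 ± 0.37 (adjusted p = 0.153) with 11 libraries. It did not pass in edgeR. It passed in both fits with limma and quality weights (adjusted p = 0.00347 and 0.0399) and with DESeq2 (adjusted p = 4.8e-04 and 4.0e-06).

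Gys2, the liver glycogen synthase, went the other way. It measured 221, 156 and 196 CPM in WT on ND and 286, 374 and 428 CPM on HFD, but 687, 413 and 631 CPM in labelled nulls on ND and 301, 371 and 324 CPM on HFD. HFD lay above ND in all WT libraries and below ND in all labelled nulls. Its interaction of -1.73 ± 0.38 (adjusted p = 0.890) and -1.58 ± 0.31 with 11 libraries (adjusted p = 0.249) did not pass in edgeR. DESeq2 called it in both fits (adjusted p = 0.00539 and 0.00182), and limma with quality weights called it with 12 libraries (adjusted p = 0.0325; with 11, 0.223). Gys2 was chosen after its values were seen, as were Cyp2a5, Abcg5, Chka and the clock genes Arntl, Cry1, Dbp, Nr1d1, Per1 to Per3, Usp2 and Ciart below.

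Of 32 genes of glycolysis, gluconeogenesis and glycogen, none passed in edgeR in either fit, 3 had an unadjusted p under 0.05 with 12 libraries and 6 with 11 (Ppp1r3b, Gys2, Khk, Tkfc, Foxo1 and Pygl), against 4.65% and 7.72% of all genes. The list median was 0.14 and 0.21.

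The other genes with the smallest p-values did not pass in edgeR. Ttll2, a tubulin polyglutamylase of cilia, was low throughout: 1.86 to 2.68 CPM in the 6 WT libraries, 3.48, 2.47 and 2.81 CPM in labelled nulls on ND and 0.507, 0.178 and 0.385 CPM on HFD, where it had 9, 2 and 4 counts. Only the labelled nulls on HFD stood apart, and its interaction was -2.70 ± 0.52 (adjusted p = 0.602; 11 libraries -2.54 ± 0.51, adjusted p = 0.249). Capn8, a calcium-dependent protease known from stomach, lay between 2.72 and 5.47 CPM in WT, between 2.27 and 3.33 CPM in labelled nulls on ND and at 7.26, 9.26 and 9.14 CPM on HFD. Its interaction was 2.04 ± 0.44 (adjusted p = 0.890) and 1.92 ± 0.41 (adjusted p = 0.293). DESeq2 called both in both fits, Ttll2 at adjusted p = 0.0249 and 0.0254 and Capn8 at 0.018 and 0.0121.

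Pgap1, which remodels the lipid anchor of GPI-linked proteins, and Lepr, the leptin receptor, depended on the divergent library. Pgap1 measured 15.5, 14.6 and 15.3 CPM in WT on ND, 24.9, 27.4 and 27.6 CPM on HFD, 6.96, 31.9 and 23.5 CPM in labelled nulls on ND and 20.1, 19.7 and 19.5 CPM on HFD. Library 1 was the lowest of all 12, on the other side of the HFD libraries from its group. The interaction of Pgap1 was -0.90 ± 0.54 (adjusted p = 0.891) with it and -1.30 ± 0.22 (adjusted p = 0.153) without it. Lepr had 2.01 CPM in library 1 and 10.9 and 14.3 CPM in the other labelled nulls on ND, against 3.21, 2.32 and 1.92 CPM on HFD and 2.34 to 6.48 CPM in WT. Its interaction was -2.53 ± 0.84 (adjusted p = 0.891) and -2.96 ± 0.54 (adjusted p = 0.181). DESeq2 called both genes without library 1 (adjusted p = 0.00111 for Pgap1 and 3.3e-04 for Lepr) and not with it (0.892 and 0.454).

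**Figure D2:**
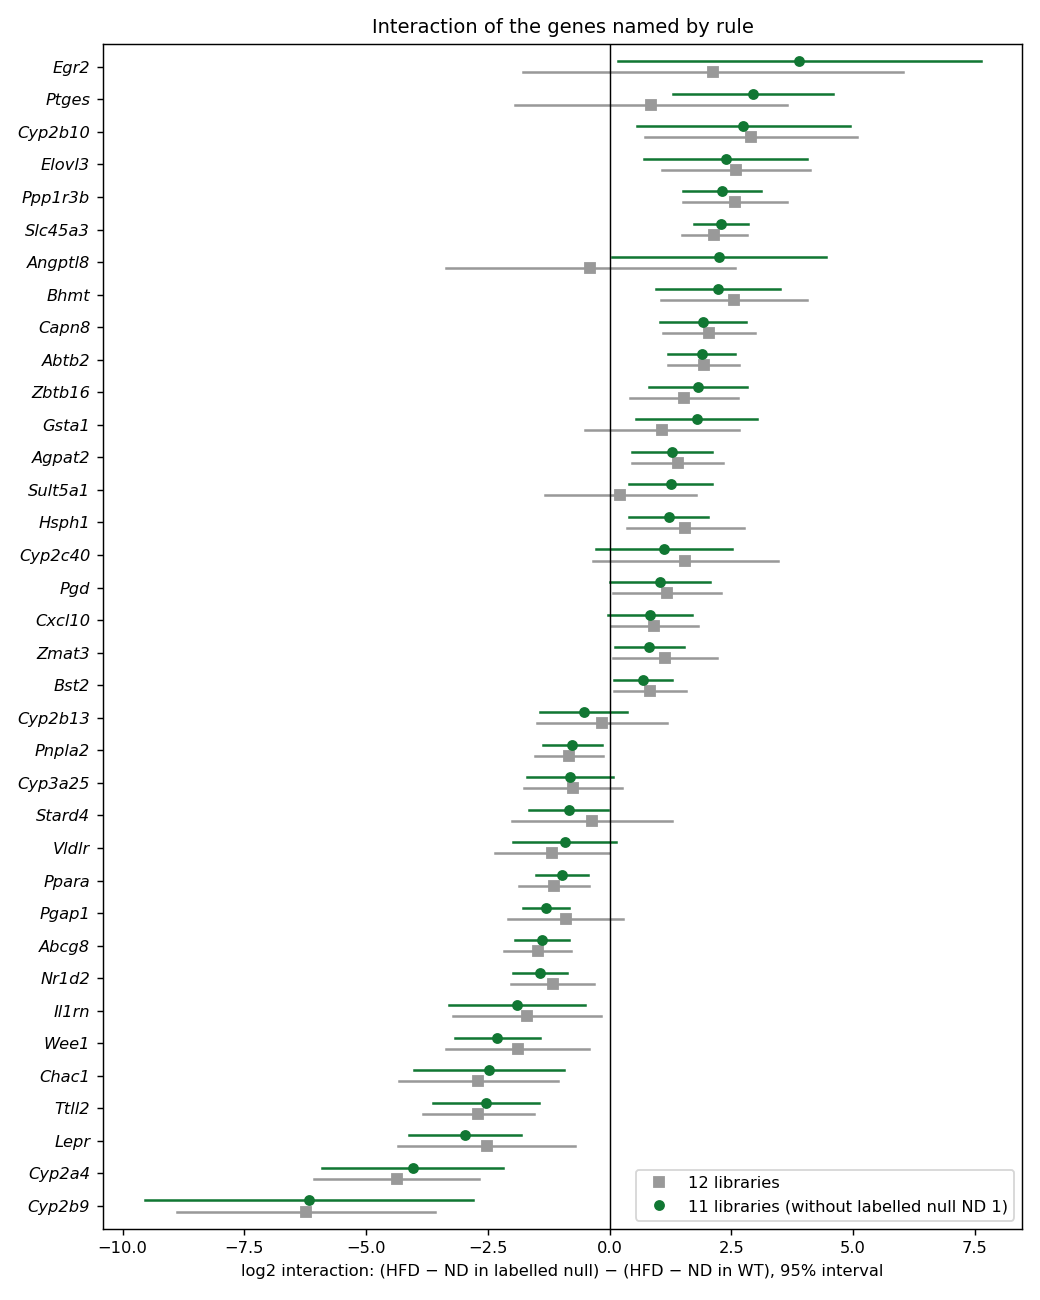
Interaction (log2, x axis) with its 95% interval for each gene named by rule, with 12 libraries (grey squares) and with 11 (green circles). Slc45a3 at 2.29 (1.73 to 2.84) is the only one that passed in edgeR; Angptl8 moves from -0.40 to 2.25 when library 1 of the labelled nulls on ND is left out.

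Among genes of sterol transport, Abcg8 and Abcg5 form the heterodimer that exports cholesterol and plant sterols into bile. Abcg8 measured 116, 92.0 and 85.1 CPM in WT on ND, 166, 205 and 209 CPM on HFD, 213, 160 and 204 CPM in labelled nulls on ND and 123, 145 and 143 CPM on HFD. Its diets did not overlap in either genotype and their order was opposite. The interaction of Abcg8 was -1.47 ± 0.32 (adjusted p = 0.890) and -1.39 ± 0.26 with 11 libraries (adjusted p = 0.181). DESeq2 called it in both fits (adjusted p = 0.00139 and 7.2e-04), and limma with quality weights with 12 libraries (adjusted p = 0.025; with 11, 0.133). Abcg5 measured 102, 83.5 and 77.9 CPM in WT on ND and 140, 205 and 193 CPM on HFD. In the labelled nulls it measured 639, 158 and 262 CPM on ND and 155, 225 and 166 CPM on HFD, which overlap, with library 1 the highest. Its interaction was -1.99 ± 0.59 and -1.24 ± 0.33 without library 1 (adjusted p = 0.891 and 0.397).

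These 2 genes are transcribed in opposite directions from neighbouring RefSeq starts on chromosome 17. The stretch between those starts is shown because it lies next to both (GRCm38.p6, chr17:84683012-84683120, plus strand, 109 bases, no annotated exon). GENCODE also annotates Abcg8 from a more distant start (chr17:84676302-84700333), so the stretch lies inside the gene as annotated there.
Abcg5-Abcg8: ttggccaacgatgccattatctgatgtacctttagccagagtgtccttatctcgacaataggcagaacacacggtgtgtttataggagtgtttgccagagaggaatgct
AGGTCA is not in this window on either strand, nor is the E-box, nor the STAT5 motif. It is shorter than the windows whose shares are given above.

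Of 29 genes of bile acid synthesis and transport, none passed in edgeR, 4 had an unadjusted p under 0.05 with 12 libraries, all negative, and 7 with 11, of which 6 were negative, beside 4.65% and 7.72% of all genes (negative 3.21% and 4.77%) (Abcg8, Abcg5, Slco1a4, Slco1b2, Abcc2, Cyp8b1 and Cyp46a1). The list median was -0.16 and -0.23. For 26 genes of cholesterol synthesis and uptake the median was -0.06 and -0.21, and the member with the smallest p, the sterol carrier Stard4, had -0.37 ± 0.76 and -0.84 ± 0.38 (adjusted p = 0.942 and 0.641).

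Ppara, the fatty acid sensing nuclear receptor that drives hepatic fatty acid oxidation, led its list. It measured 243, 241 and 221 CPM in WT on ND and 551, 450 and 567 CPM on HFD. The labelled nulls already held 643, 525 and 431 CPM on ND and had 602, 540 and 478 CPM on HFD. Thus WT libraries differed by diet without overlap and the labelled nulls overlapped. Its interaction was -1.14 ± 0.33 and -0.98 ± 0.25 (adjusted p = 0.891 and 0.397). DESeq2 called it in both fits (adjusted p = 0.0481 and 0.0205). Of the 45 tested PPAR-alpha targets and fatty acid oxidation genes none passed in edgeR, 2 had an unadjusted p under 0.05 with 12 libraries and 6 with 11, beside 4.65% and 7.72% of all genes (Ppara, Cpt1a, Vnn1, Eci2, Hadhb and Acadl, all negative). The median of this list was 0.03 with 12 and -0.25 with 11 libraries, so its sign depends on library 1. Nuclear receptors that sense lipids and xenobiotics had a negative median in both fits, -0.44 and -0.29 over 20 genes, with 3 and 4 members under an unadjusted p of 0.05, all negative, beside 3.21% and 4.77% of all genes.

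Of 29 genes of fatty acid and triglyceride synthesis 3 had an unadjusted p under 0.05 in each fit, Elovl3, Agpat2 and Lpin2, beside 4.65% and 7.72% of all genes. Agpat2, an acyltransferase that makes phosphatidic acid, had 231, 213 and 193 CPM in WT on ND, 178, 183 and 102 CPM on HFD, 90.8, 153 and 87.9 CPM in labelled nulls on ND and 182, 188 and 267 CPM on HFD. HFD was below ND in all WT libraries and above ND in all labelled nulls. Its interaction of 1.4 ± 0.43 and 1.28 ± 0.38 did not pass (adjusted p = 0.891 and 0.425). Pnpla2, the lipase that starts triglyceride breakdown, had -0.83 ± 0.32 and -0.76 ± 0.28 (adjusted p = 0.891 and 0.546), and Vldlr, a receptor for triglyceride-rich lipoproteins, -1.18 ± 0.54 and -0.92 ± 0.49. Angptl8, a feeding-induced inhibitor of lipoprotein lipase, had 1116 CPM in library 1 and 65.2 and 67.5 CPM in the other labelled nulls on ND. The rest of its libraries lay between 19.5 and 327 CPM. Its interaction was -0.40 ± 1.36 with library 1 and 2.25 ± 0.96 without it (adjusted p = 0.963 and 0.645).

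Polyunsaturated fatty acid enzymes, the theme of the series title, had a median near that of all genes. Over 38 genes of desaturation, elongation and oxylipin formation it was 0.04 with 12 and -0.09 with 11 libraries, and 2 members had an unadjusted p under 0.05 in each fit, beside 4.65% and 7.72% of all genes. Ptges, which makes prostaglandin E, had 11.1 CPM in library 1 and at most 2.67 CPM in each of the other 11, and its interaction was 0.85 ± 1.28 with library 1 and 2.94 ± 0.77 without it (adjusted p = 0.924 and 0.397). Elovl3, an elongase that is higher in males and follows the clock, had 494, 485 and 193 CPM in WT on ND, 64.6, 107 and 32.7 CPM on HFD, and between 30.5 and 73.9 CPM in the 6 labelled nulls. Only WT libraries on ND stood apart, and the interaction was 2.60 ± 0.70 and 2.38 ± 0.75 (adjusted p = 0.891 and 0.493).

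**Figure D3:**
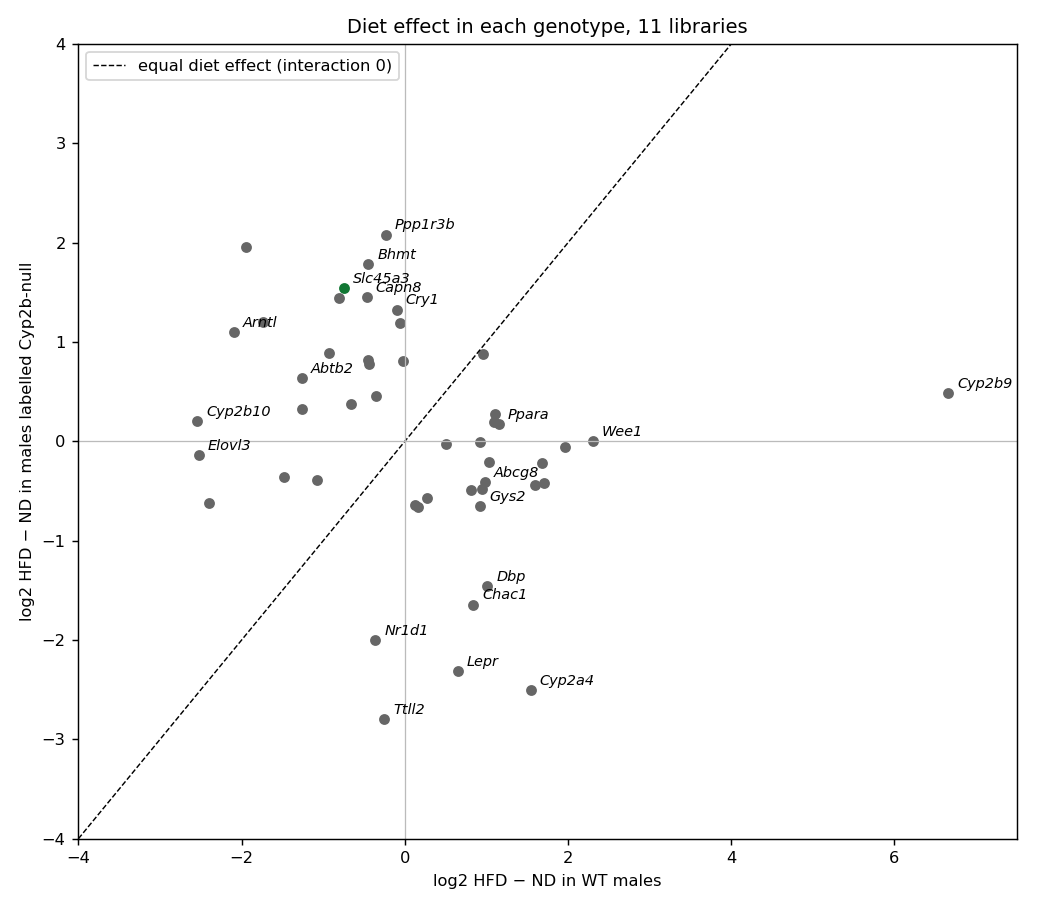
Diet difference (log2, HFD minus ND) in WT males (x axis) and in males labelled Cyp2b-null (y axis) for the genes named in the text, 11 libraries; the dashed line marks an interaction of 0. Slc45a3 (green, -0.75 and 1.54) and Cyp2a4 lie in opposite quadrants, Ppp1r3b moves mainly along the y axis and Cyp2b9 along the x axis.

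Of 32 CAR and PXR targets, the genes through which the liver answers foreign compounds, 3 and 6 had an unadjusted p under 0.05, beside 4.65% and 7.72% of all genes, with medians of 0.32 and 0.30, and the 6 were Gsta1, Slco1a4, Gsta2, Abcc2, Tsku and Gstt1. Gsta1, a glutathione transferase of detoxification, had lower levels on HFD without overlap in both genotypes, and its interaction was 1.08 ± 0.73 and 1.79 ± 0.58 (adjusted p = 0.891 and 0.459). The 13 Cyp2c enzymes had medians of 0.72 and 0.41 and the 8 Cyp3a enzymes 0.49 and -0.03, with no member under an unadjusted p of 0.05 in either fit; their smallest p belonged to Cyp2c40 (1.55 ± 0.87 and 1.12 ± 0.65) and Cyp3a25 (-0.75 ± 0.46 and -0.81 ± 0.41). Conjugating enzymes had medians of 0.13 and -0.12 over 22 genes, and their sulfotransferase Sult5a1 had 0.22 ± 0.71 and 1.25 ± 0.39. For NRF2 targets the medians were 0.44 and 0.16, and Pgd, an NADPH-producing enzyme, had 1.18 ± 0.51 and 1.03 ± 0.48. The 7 tested Cyp2 genes of chromosome 7 other than Cyp2b changed the sign of their median from -0.84 to 0.57 when library 1 was left out.

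Sex-biased genes had medians of opposite sign. Over 31 female-biased liver genes the median was -0.43 with 12 and -0.53 with 11 libraries. Their members under an unadjusted p of 0.05 numbered 4 and 5, all negative, beside 3.21% and 4.77% of all genes with a negative value, and included Cyp2a4, Cyp2b9 and the bile acid and steroid carrier Slco1a4 in both fits. Over 32 male-biased genes the median was 0.44 and 0.15, and with 11 libraries 12 of the 32 were negative. Elovl3 and the selenium-binding protein gene Selenbp2 had an unadjusted p under 0.05 in both fits, beside 1.44% and 2.95% of all genes with a positive value. In the female libraries the signs of the medians were the reverse, -0.47 over 25 male-biased and 0.22 over 36 female-biased genes. Of the female-biased genes 28 were positive and 8 negative there. Cyp2a4 (-0.67 ± 0.31) and Cyp2b9 (-2.01 ± 0.74) were negative in females as in males. A sex difference of these lists was not tested.

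The circadian clock lists had several members under an unadjusted p of 0.05, beside 4.65% of all genes with 12 libraries and 7.72% with 11. In the core clock there were 5 of 17 genes with 12 libraries and 9 of 18 with 11 (among them Nr1d2, Arntl, Cry1, Nr1d1 and Per3; 3 positive, 6 negative). Among clock output genes there were 8 of 18 in each fit, 2 of them positive. The medians were -0.48 and -0.35 for the core clock and -0.72 and -0.84 for its output, and none of these genes passed in edgeR in either fit. DESeq2 called Arntl, Dbp and Gys2 with 12 libraries (adjusted p = 0.0153, 0.0298 and 0.00539), and with 11 also Nr1d2 and Wee1 (adjusted p = 6.7e-04 and 3.3e-04; Arntl 0.00111, Dbp 0.0126). The labels give no time of day at which livers were taken, so time of collection and group cannot be told apart.

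Arntl (BMAL1), the activator of the core loop, had 17.4, 13.6 and 4.53 CPM in WT on ND, 3.69, 3.02 and 1.77 CPM on HFD, 2.68, 2.04 and 1.70 CPM in labelled nulls on ND and 4.90, 3.83 and 3.27 CPM on HFD. HFD lay below ND in WT and above ND in the labelled nulls, without overlap. Its interaction of 3.01 ± 0.65 and 3.19 ± 0.66 did not pass (adjusted p = 0.890 and 0.249). Cry1, a repressor of the loop, lay between 5.81 and 9.28 CPM in the WT libraries and in the labelled nulls on ND, and at 15.6, 25.0 and 21.6 CPM in the labelled nulls on HFD. Only that group stood apart (interaction 1.46 ± 0.39 and 1.42 ± 0.38).

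Nr1d2 (REV-ERB beta), a heme-sensing repressor of Arntl, had 70.0, 67.8 and 85.0 CPM in WT on ND and 114, 172 and 143 CPM on HFD. It had 78.1 CPM in library 1, 163 and 140 CPM in the other labelled nulls on ND and 120, 105 and 100.4 CPM on HFD. Thus library 1 lay below its group's HFD libraries and the others above them, and the interaction was -1.17 ± 0.39 with it and -1.42 ± 0.26 without it (adjusted p = 0.891 and 0.181). Nr1d1 (REV-ERB alpha) overlapped between diets in WT, 153 to 200 CPM on ND and 74.4 to 185 CPM on HFD. It was lower on HFD in every labelled null, 58.0, 18.7 and 25.1 CPM against 333, 118 and 155 CPM (interaction -2.21 ± 0.69 and -1.64 ± 0.60).

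Dbp, a clock-driven activator of P450 genes, had 34.4, 76.8 and 143 CPM in WT on ND, 163, 134 and 216 CPM on HFD, 709, 201 and 266 CPM in labelled nulls on ND and 120, 52.8 and 82.1 CPM on HFD. WT diets overlapped, and all labelled nulls on HFD lay below those on ND. The interaction was -3.22 ± 0.79 and -2.47 ± 0.68 (adjusted p = 0.891 and 0.402). Wee1, a clock-controlled kinase that holds cells before mitosis, had 2.68, 3.57 and 6.15 CPM in WT on ND and 16.0, 19.2 and 26.3 CPM on HFD, without overlap. The labelled nulls had 6.42 CPM in library 1 and between 23.7 and 34.4 CPM in the other 5 libraries. Its interaction was -1.89 ± 0.67 and -2.30 ± 0.41 (adjusted p = 0.891 and 0.181). Among the period genes, Per3 had -1.81 ± 0.73 and -2.03 ± 0.77, Per1 -1.37 ± 0.82 and -0.90 ± 0.89, and Per2 -0.45 ± 0.55 and -0.07 ± 0.48, and no difference between them was tested. Usp2 and Ciart, both under clock control, had -2.31 ± 1.03 and -2.42 ± 1.23 with 12 libraries and -2.02 ± 1.21 and -2.13 ± 1.47 with 11. Their levels in the 3 libraries of WT on ND ran from 2.16 to 20.7 CPM and from 0.519 to 14.8 CPM, a wide spread. With library 3 of that group left out of the 12 the values were -4.25 and -4.40, and without library 3 of WT on HFD they were -1.60 and -1.35.

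**Figure D4:**
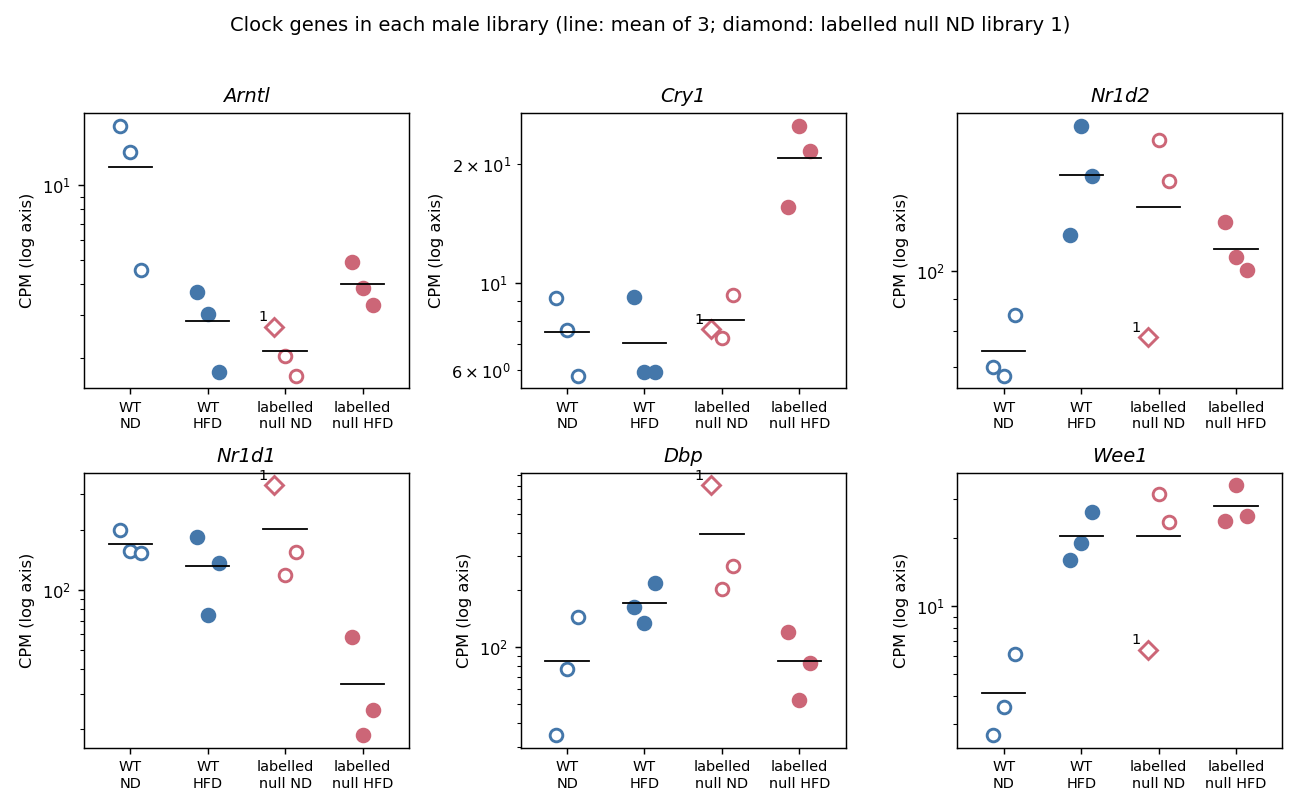
Level of 6 clock genes in each male library (CPM, log axis), by genotype and diet; points are libraries, lines are means of 3 and the diamond is library 1 of the labelled nulls on ND. Arntl is lower on HFD in WT and higher on HFD in the labelled nulls, Cry1 is highest at 15.6 to 25.0 CPM in the labelled nulls on HFD, and the diamond lies apart from its group for Nr1d2 (78.1 CPM), Dbp (709 CPM) and Wee1 (6.42 CPM).

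Amino acid genes leaned positive. Over 41 genes of amino acid catabolism and the urea cycle the median was 0.16 and 0.26, and none passed in edgeR. Positive members numbered 26 and 32, beside 46.5% and 47.8% of all genes. An unadjusted p under 0.05 was reached by 3 and 4 members, all positive, beside 1.44% and 2.95% of all genes. Other lists leaned positive as well, such as glutathione S-transferases with 17 and 16 of 20. Bhmt, which remethylates homocysteine with betaine, had 1503, 2598 and 2298 CPM in WT on ND, 1576, 2029 and 1091 CPM on HFD, 252, 976 and 348 CPM in labelled nulls on ND and 1749, 3227 and 1848 CPM on HFD. The labelled nulls did not overlap between diets and WT did. The interaction of Bhmt was 2.56 ± 0.69 and 2.23 ± 0.59 (adjusted p = 0.891 and 0.397; DESeq2 0.0936 and 0.0129). Chka, a choline kinase of phosphatidylcholine synthesis, had 0.98 ± 0.51 and 1.58 ± 0.32 (adjusted p = 0.891 and 0.249; DESeq2 0.874 and 0.00462).

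Protein-folding genes also leaned positive. Of 11 heat shock genes 9 and 10 were positive, with medians of 0.80 and 0.48, and 4 and 5 had an unadjusted p under 0.05, all positive, beside 1.44% and 2.95% of all genes (Hsph1, Hspa8, Hsp90aa1, Bag3 and Hspe1 with 11 libraries). Hsph1, a chaperone that exchanges nucleotide on HSP70, had 77.8, 112 and 146 CPM in WT on ND, 115, 67.4 and 66.2 CPM on HFD, 12.4, 35.6 and 36.5 CPM in labelled nulls on ND and 55.0, 72.8 and 57.6 CPM on HFD. All labelled nulls on HFD lay above those on ND, and WT overlapped (interaction 1.56 ± 0.55 and 1.21 ± 0.38, adjusted p = 0.891 and 0.451). Of 29 genes of the ER and integrated stress response 5 and 6 had an unadjusted p under 0.05, beside 4.65% and 7.72% of all genes, with medians of 0.51 and 0.39. Under that threshold in both fits were the folding factors Manf, Creld2 and Hyou1, which were positive, and the ATF4 targets Chac1 and Trib3, which were negative. They were picked by p-value, so they do not describe all folding factors or ATF4 targets of the list. Chac1, which degrades glutathione, had -2.70 ± 0.75 and -2.48 ± 0.72 (adjusted p = 0.891 and 0.398). Immediate early genes, which respond within minutes to handling or signals, moved from a median of 0.14 to 0.86 over 23 genes when library 1 was left out, with 1 and 2 members under an unadjusted p of 0.05, beside 4.65% and 7.72% of all genes. Egr2 among them rested on 0 to 17 counts per library.

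Zbtb16, a glucocorticoid-induced transcription factor, had 1.53 ± 0.51 and 1.81 ± 0.47 (DESeq2 adjusted p = 0.495 and 0.0308), and the p53 target Zmat3 1.14 ± 0.49 and 0.82 ± 0.33. Immune lists had medians between -0.11 and 0.33 over both fits. Their members with the smallest p were Il1rn, the interleukin-1 receptor antagonist (-1.69 ± 0.70 and -1.90 ± 0.65), the interferon-induced tether Bst2 (0.84 ± 0.34 and 0.69 ± 0.27) and the chemokine Cxcl10 (0.92 ± 0.41 and 0.83 ± 0.40), with adjusted p values from 0.509 to 0.891.

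Most genes of the nuclear-encoded respiratory chain shared a sign: 62 of 74 were positive with 12 libraries and 71 of 74 with 11, at medians of 0.39 and 0.34. Among all genes 46.5% and 47.8% were positive. None of the 74 passed in edgeR. At an unadjusted p under 0.05 there were 0 and 2 (Ndufa5 and Ndufa8 with 11 libraries), beside 4.65% and 7.72% of all genes. The members share the same libraries, so they are not separate observations. The 15 mitochondrially encoded genes had a median of -1.55 with all 15 negative in 12 libraries, and -0.20 with 5 positive in 11. Of 75 cytosolic ribosomal protein genes 44 and 63 were positive, at medians of 0.17 and 0.21.

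Among cell type markers, those of lymphocytes and neutrophils, adipocytes and muscle had interactions that depended most on library 1. The median of lymphocyte and neutrophil markers went from -1.44 to -0.28 over 10 genes, that of adipocyte markers from -1.37 to -0.56 over 6 and that of muscle markers from -1.13 to -0.02 over 2. Hepatocyte markers had 0.49 and 0.34 over 15 genes, Kupffer cell and macrophage markers 0.02 and -0.12 over 23, stellate cell and matrix genes 0.20 and 0.29 over 23, and sinusoidal endothelial markers 0.11 and 0.20 over 22. Cholangiocyte and progenitor markers had -0.52 and -0.10 over 10 genes and erythroid markers 0.45 and 0.63 over 6. Of 18 pancreatic acinar markers 7, among them the trypsinogens Prss1 and Prss2, were at 0 in all 12 libraries.

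**Figure D5:**
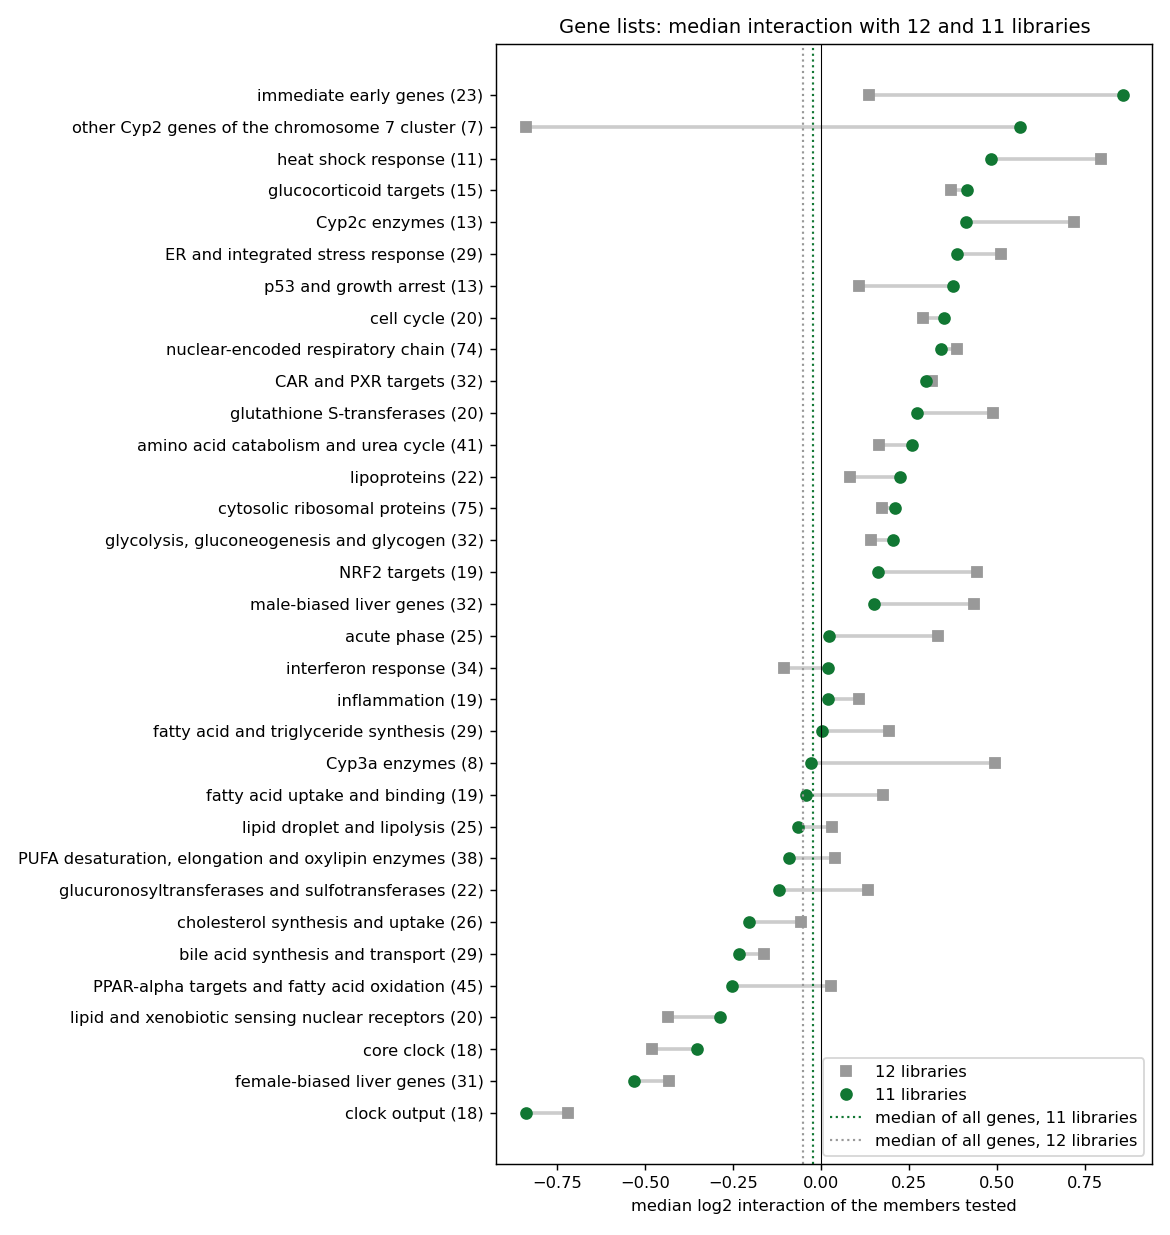
Median interaction (log2, x axis) of the members tested in each gene list drawn, with 12 libraries (grey squares) and 11 (green circles). The Cyp2b genes, cell type markers, mitochondrially encoded genes and non-coding RNAs were not drawn. Some of these had lower medians with 12 libraries, such as -1.44 for lymphocyte and neutrophil markers. The number of genes tested with 11 libraries stands in parentheses and dotted lines mark the medians of all genes (-0.05 and -0.02). Among the lists drawn, clock output is lowest (-0.72 and -0.84 for 18 genes) apart from the chromosome 7 Cyp2 list with 12 libraries, which moves from -0.84 to 0.57.

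In the 12 female libraries the same contrast called none of 11830 genes (0% called), with 342 at an unadjusted p under 0.05 (2.89%; 1.34% positive and 1.55% negative). These libraries held 2.01 M to 2.66 M counts, and the genotype characteristic of 6 of the 12 contradicts the title that was followed. Slc45a3 had an interaction of 0.14 ± 0.47 in females, and the female minus male difference was -2.18 ± 0.54 without library 1 of the male labelled nulls on ND (unadjusted p = 4.7e-04, adjusted p = 1.0) and -2.0 ± 0.57 with it (unadjusted p = 0.00176, adjusted p = 1.0). Ppp1r3b had 1.67 ± 0.48 in females (difference -0.66 ± 0.64 without library 1 and -0.91 ± 0.71 with it). Dbp had -1.82 ± 0.39 (difference 0.60 ± 0.80 and 1.4 ± 0.91), Cry1 1.49 ± 0.88 (0.041 ± 0.91 and 0.036 ± 0.91) and Angptl8 2.42 ± 0.50 (0.12 ± 1.09 and 2.82 ± 1.54). Abtb2 had 0.061 ± 0.75 in females (difference -1.86 ± 0.81 and -1.88 ± 0.83). Abcg8 had -0.043 ± 0.30 (1.31 ± 0.39 and 1.42 ± 0.43) and Cyp2a4 -0.67 ± 0.31 (3.31 ± 0.82 and 3.69 ± 0.84). Elovl3 (-0.90 ± 1.24) and Cyp2b10 (-1.85 ± 1.65) had the opposite sign to males. Genes compared here were picked without a rule and do not show how often the sexes share a sign. Over all genes the sex difference called none of 15043 with 24 libraries (0% called; 468 at an unadjusted p under 0.05, 3.11%, with 1.95% positive and 1.16% negative) and none of 13415 with 23 (0% called; 570 at an unadjusted p under 0.05, 4.25%, with 2.36% positive and 1.89% negative). Sex, RNA extraction and library kit cannot be told apart here.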

How the data were processed

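Total liver RNA of male C57BL/6 mice was purified by RNeasy Plus Universal columns and made into TruSeq Total RNA libraries, per the labels' protocols. The authors deposited unnormalised read counts, 1 row per gene symbol. Their processing notes list GSNAP, Subread, edgeR, Trimmomatic and FastQC on build GRCm38.p5 (per the submitters' processing notes); which settings, versions and strand mode were used is not given in the sources used here. Close paralogues can share reads, which counting may split or drop.

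Groups were taken from the sample titles. Rows of the 1806 repeated symbols, of 46093 in all, were summed; 25 symbols turned into dates were not tested. Replicates differed by more than sampling noise in each pair (chi-square per degree of freedom at least 9.92). Counts were fitted with edgeR 4.0.16 in R 4.3.3 (TMM, filterByExpr by group, 1 term per group, robust dispersions, quasi-likelihood test), with Benjamini-Hochberg adjustment over all genes tested and a threshold of 0.05. CPM use TMM factors. The test recovered large known changes, put into genes above a minimum level, in data simulated with the same dispersion throughout and no divergent library. This does not show its power on the real libraries.

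The genes, lists and libraries were chosen with earlier results of these data known. Genes named were Cyp2b9, Cyp2b10 and Cyp2b13, the 8 genes with the smallest p in each male fit where fewer than 4 were called (average log2 CPM of at least 1, no predicted or clone name), and for each list its smallest-p member; the others were chosen after their values were seen. The 46 lists hold 1167 entries, 1165 of them in the table; mitochondrial names and the transferrin symbol were respelled to match the table. Positions are from GENCODE M21 (GRCm38), and promoter windows from RefSeq (GRCm38.p6), found for 41 of 49 named genes and shortened where they overlapped an exon.

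Same-numbered libraries did not deviate together in every pair (r from -0.446 to 0.367 over 18 pairs), so replicate numbers were not used. Alternatives tried were DESeq2 1.42.0, RLE scaling, no filter, limma 3.58.1 with library quality weights, the first of duplicated symbols, mitochondrially encoded genes left out, non-robust dispersions, a replicate block and leaving out each library; leaving out each library for the sex difference was added after seeing the data.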

Additional observations from a re-analysis of the deposited data

Results flagged for a closer look

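Slc45a3 was marked because its interaction passed in edgeR with 11 libraries, where no other gene did. Each of the 3 WT libraries on HFD lay below each WT library on ND. Each labelled null on HFD lay above each labelled null on ND. Opposed orders of the diets without overlap were also seen for Abtb2, Abcg8, Cyp2a4, Gys2, Agpat2 and Arntl, which were not marked. The test of the difference itself gave Slc45a3 an interaction of 2.29 with 11 libraries (edgeR's quasi-likelihood test, adjusted p = 0.00764) and 2.15 with 12 (adjusted p = 0.196). No explanation was tested.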

How the results depend on the processing

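With 12 libraries the count of called genes was 0 by default and stayed at 0 with RLE scaling, no filter, the first of duplicated symbols, mitochondrially encoded genes left out and non-robust dispersions. It was 19 with DESeq2 (7 positive, 12 negative), 6 with limma and library quality weights (4 and 2), where library 1 of the labelled nulls on ND had a weight of 0.0676 and the others 0.531 to 3.41, and 0 to 1 when each library was left out, the 1 without that library. With 11 libraries the count was 1, and became 353 with no filter (142 and 211), 57 with DESeq2 (28 and 29) and 2 with limma (Slc45a3 and Ppp1r3b). The cause was not tested. Genes called by edgeR with no filter included Cyp2a4, Cyp2b9, Ppp1r3b, Arntl, Wee1, Dbp, Usp2, Ciart, Lepr, Elovl3, Bhmt and Angptl8. None of these passed with the filter on the same 11 libraries by default. Leaving out a library gave 0 to 5: 5 without library 3 of WT on ND (Slc45a3, Arntl, Wee1, Gm2061 and Nat8f5) and 0 without library 2 or 3 of the labelled nulls on ND, where the lone sample is assumed to vary like the other groups. Other settings kept the call of Slc45a3. In females the count went from 0 to 1 (Angptl8) without library 1 of WT on HFD, and the sex difference stayed at 0 in each fit run. Under RLE scaling 0 of 43 list medians changed sign.

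With the replicate number as a block the count was 0 with 12 libraries, 2 with 11 (Cyp2a4 and Slc45a3) and 0 in females. The numbers were not taken to pair the libraries, since r was above 0.1 in 10 of 18 same-numbered pairs and in each pair only between WT on ND and WT on HFD. The block turned Angptl8 to 0.57 with 12 libraries and Per2 to 0.033 with 11.

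Among named genes the sign turned in 4 with 12 libraries and in 1 with 11; none of these values passed. When each library was left out, the range with 12 libraries was -0.53 to 0.46 for Cyp2b13 (turned without library 1 of WT on ND or library 2 of the labelled nulls on ND), -0.094 to 1.25 for Sult5a1 (without library 2 or 3 of the labelled nulls on ND), -0.84 to 0.23 for Stard4 (without library 2 of the labelled nulls on ND) and -1.11 to 2.25 for Angptl8 (without library 1 of the labelled nulls on ND or library 3 of WT on HFD), which was 2.44 with limma. For Per2 with 11 libraries it was -0.64 to 0.21, with 5 libraries turning the sign. Depth limited genes under about 1 CPM, such as Cyp2b9 in WT on ND.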
